A study of Mus musculus with 6 samples.

Results

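The 44 genes described here belong to the type I interferon response and were taken by symbol from a table of 23235 genes, in which all 44 were found. They were sorted by known function into 24 antiviral effectors, 12 signalling factors, 2 immunoproteasome subunits and 6 membrane proteins. Ifi27l1 is now called Ifi27, and D14Ertd668e is now Phf11d. Levels were measured by RNA sequencing after Smart-seq2 amplification of cDNA from LT-HSCs, the long-term blood-forming stem cells of bone marrow, which were sorted from C57BL/6 mice aged 2 months. The mice were wild type (WT) or Hmces knockout, with 3 libraries of 1500 cells per genotype (the design text speaks of duplicates). All 6 titles, WT included, also bear the tag 13bp, which is unexplained. HMCES binds abasic sites in single-stranded DNA. The sources used here do not describe the knockout allele or the sorting panel, nor whether each library had its own mice, so p-values reflect the spread between libraries alone and that spread may be technical.

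Type I interferons bind the receptor IFNAR, whose kinases JAK1 and TYK2 phosphorylate STAT2 among other factors. Together with IRF9, STAT2 takes part in a complex that binds the interferon-sensitive response element (ISRE) in promoters and turns on the response genes, many of which block steps of viral replication. In bone marrow, interferon is known to drive dormant stem cells into division, and stem cells are known to keep some of these genes on without infection.

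The table gives FPKM, a fragment count scaled for transcript length and for the mapped total of the library, so levels can be set against each other between genes. Libraries held an estimated 9200000 to 14100000 fragments, and 11069 to 11448 genes reached an FPKM of 1. Hmces, listed as 8430410A17Rik, stood at 39.5 to 45.4 FPKM in WT and at 0.222 to 8.95 FPKM in knockout libraries, the direction of the labels (exact two-sided permutation p = 0.1, the smallest that 3 against 3 allows). Knockout replicate 2 lay far from the rest along the leading principal component, at 67.0 against -33.6 to 10.1 for the other libraries, and values without it are given beside several results. Differences of markers were taken as knockout minus WT in mean log2(FPKM + 1). Of 13 stem cell markers, 11 were tested, 4 with a positive difference. The summed level of the 13 was 780 to 859 FPKM in WT and 911 to 946 FPKM in knockout libraries. Without Ly6a and Esam it was 498 to 542 and 445 to 525 FPKM. These 2 were the tested stem cell markers whose groups did not overlap, both higher in knockout libraries. Of the 13 markers, Fgd5 and Hoxb5 had a mean below 1 FPKM. All 14 granulocyte and monocyte markers had a positive difference, 12 of them with groups that did not overlap. Their summed level was 6963 to 10675 FPKM in WT and 19173 to 25576 FPKM in knockout libraries. Csf1r, with a difference of 0.06, had a slightly lower mean FPKM in knockout libraries, 4.80 against 4.94. All 5 tested B cell markers also had a positive difference, 3 of them with overlapping groups. The 8 listed summed to 59.6 to 75.5 FPKM in WT and 69.1 to 129 in knockout libraries. All 8 macrophage markers had a negative difference, 7 of them with overlapping groups (summed level 38.7 to 161 and 11.9 to 93.7 FPKM). Cd68, with a difference of -0.07, had a higher mean FPKM in knockout libraries, 24.8 against 22.2. Other lists were mixed or short. A positive difference was found for 2 of 4 tested T and NK cell markers and 3 of 4 erythroid markers. It was found for 2 of 6 megakaryocyte markers and 3 of 3 stromal and endothelial markers. The megakaryocyte markers summed to 664 to 1057 FPKM in WT and 359 to 736 FPKM in knockout libraries. In bulk samples fewer cells of a type and less RNA per cell cannot be told apart.

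Promoter sequence was not itself used to choose the genes. They were chosen as interferon response genes, many of which are turned on through the ISRE, so a high share of its letters was likely in advance. The reference table, RefSeq on GRCm38.p6, held windows of 250 bases before to 50 bases after the start site for 34 of the 44 genes. The ISRE core letters, GAAA, any 2 bases and GAAA again, searched on both strands, stood in the windows of 13 of these 34 genes (38.2%), against 349 of 9071 tested genes with a window (3.85%) and 3.44% of all 32851 windows. They were present in 9 of 20 antiviral effectors, 1 of 8 signalling factors, 3 of 4 membrane proteins and 0 of 2 immunoproteasome genes. The letters TTCNNNGAA, the core of the STAT dimer site known as GAS, were searched afterwards on both strands and stood in 11 of the 34 genes (32.4%), against 8.33% of tested genes. Matches to the 2 sets of letters share bases in Bst2 and Ifitm3. A match is a description of the letters and does not show binding.

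The stretches below show where the ISRE letters lie upstream of those genes whose value in every library is given and whose matches end before the start site. Capitals mark the matches, some of which overlap, and all are read 5′ to 3′ on the gene's strand. Isg15 lies at chr4:156200850-156200921 (minus strand), Ifit1 at chr19:34640760-34640838 (plus), Oas1a at chr5:120907526-120907570 (minus), Oas3 at chr5:120777700-120777759 (minus), Rsad2 at chr12:26456538-26456597 (minus), Igtp at chr11:58199497-58199555 (plus), Irgm1 at chr11:48871421-48871475 (minus), Ifitm2 at chr7:140955973-140956032 (minus) and Bst2 at chr8:71537562-71537627 (minus), all on GRCm38.p6.
Isg15: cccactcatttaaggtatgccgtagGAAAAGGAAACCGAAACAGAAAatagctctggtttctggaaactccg
Ifit1: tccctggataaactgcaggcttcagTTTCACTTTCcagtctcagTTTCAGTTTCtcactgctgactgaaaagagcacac
Oas1a: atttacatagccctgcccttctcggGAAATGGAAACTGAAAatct
Oas3: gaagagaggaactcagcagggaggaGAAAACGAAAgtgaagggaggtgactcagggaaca
Rsad2: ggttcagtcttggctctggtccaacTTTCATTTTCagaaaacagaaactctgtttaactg
Igtp: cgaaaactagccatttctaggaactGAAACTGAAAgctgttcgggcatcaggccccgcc
Irgm1: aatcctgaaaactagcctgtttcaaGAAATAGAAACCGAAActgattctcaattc
Ifitm2: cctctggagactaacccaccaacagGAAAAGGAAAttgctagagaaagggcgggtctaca
Bst2: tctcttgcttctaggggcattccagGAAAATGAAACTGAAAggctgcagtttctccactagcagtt

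In Rsad2 and Ifit1 the matches read on the opposite strand, in Oas1a, Irgm1 and Bst2 a pair of matches overlaps, and in Isg15 a run of 3 does. With the base before the start site counted as -1, the nearest match among these 9 genes ended at -5 in Oas1a, and the farthest began at -130 in Bst2.

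RNA of the whole set was already found in the WT libraries, since all 44 genes had a value above 0 in each of the 6 libraries. The WT libraries also held RNA of granulocyte and monocyte markers. Which cells held the RNA of the members was not tested. The median WT mean was 24.4 FPKM, against 13.6 FPKM over all genes tested, and 31 of the 43 tested members lay above that second value. Together the members took 0.751 to 0.820% of the summed FPKM in WT and 0.786 to 0.802% in knockout libraries. By WT mean, 3 members exceeded 1000 FPKM, 6 lay between 100 and 1000, 25 between 10 and 100, 9 between 1 and 10, and Mx2 alone lay below 1. The coefficient of variation within WT had a median of 15.5% over the 44 genes, and 17.7% within knockout.

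The plot of levels orders all members by their WT mean. The 3 IFITM genes headed the order, and their WT ranges overlapped each other but lay clear of Psmb8, the next gene. Their longest reference transcripts were only 655 to 882 bases, so this place in the order depends on the length scaling. Psmb8, Psmb9 and Ifi27l1 followed in separate steps. Of the 43 pairs of neighbours in this order, 33 had overlapping WT ranges, so the order within most pairs is uncertain. Genes further apart in the order can still differ beyond the spread. At the low end stood D14Ertd668e, Mx1 and Mx2, with WT means of 1.57, 1.002 and 0.985 FPKM.

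**Figure D1:**
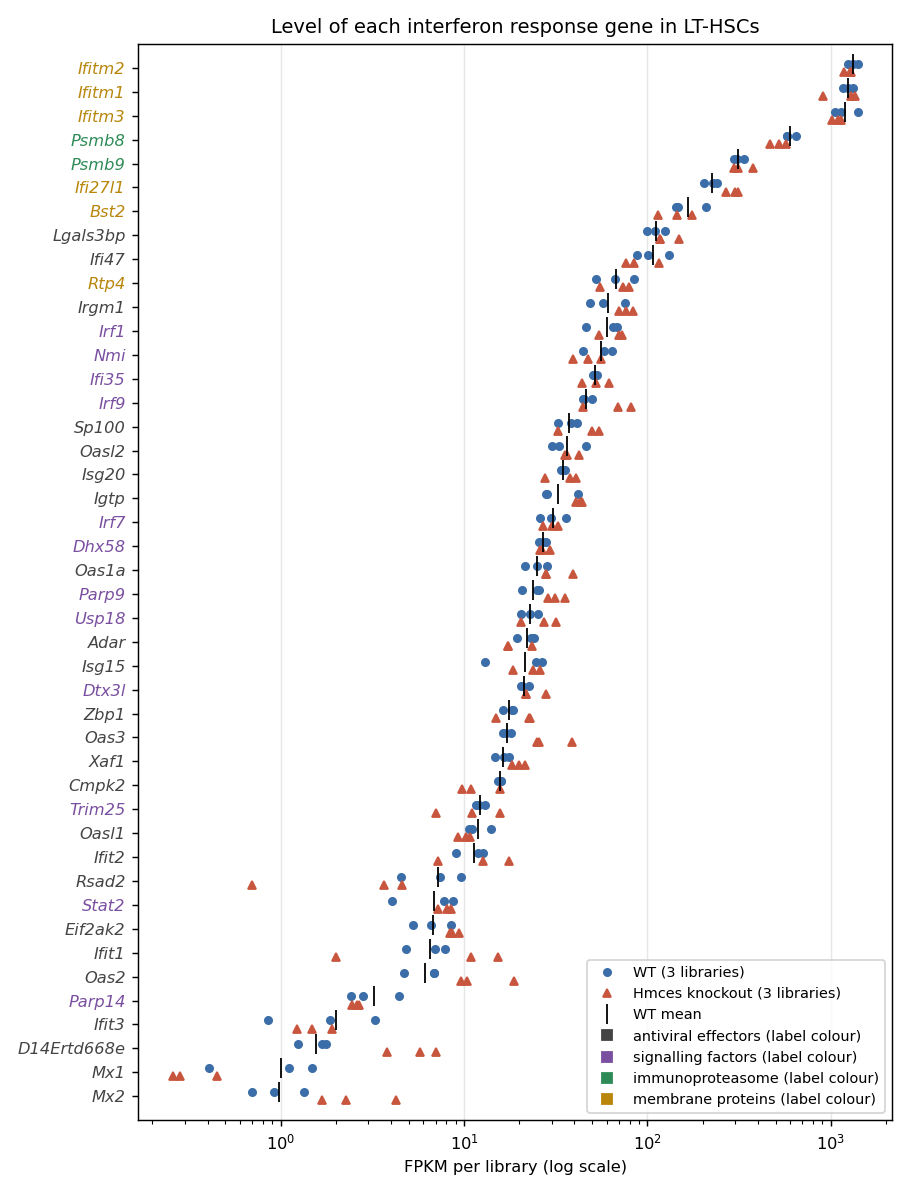
FPKM of each of the 44 genes (log scale, x axis) in 3 WT libraries (circles) and 3 Hmces knockout libraries (triangles), ordered by the WT mean (vertical tick), with gene names coloured by role. The IFITM genes lie above 1000 FPKM in WT and Mx2 lies at the bottom with a WT mean of 0.985 FPKM.

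Between the genotypes, no member passed the test. The 43 genes with a mean of at least 1 FPKM over the 6 libraries were tested by limma on log2(FPKM + 1), with p-values adjusted over all 11532 genes tested, and 0 members were called at an adjusted p under 0.05 (percent called over all genes, 0.113; 0.104 higher and 0.00867 lower). At an unadjusted p under 0.05, 5 members were higher and 1 lower in knockout cells, against 4.32% and 4.84% of all genes tested. A positive log2 fold change, knockout minus WT, was found for 28 of 43 members, against 48.1% of all genes, with a median of 0.08 against -0.01. The median was 0.046 without WT replicate 1 and 0.16 without WT replicate 2. Beyond 1.5-fold on this scale, in either direction, lay 5 of 43 members, against 14.1% of all genes. This scale understates differences of low genes. The members were chosen with earlier results of these data known, so their counts beside all genes are a description only.

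Ranges that do not overlap give the direction gene by gene. For 7 members every knockout value lay above every WT value, against 7.47% of all genes tested, and for 1 member, Psmb8, every knockout value lay below, against 8.34%. Under upper-quartile scaling the counts were 8 higher and 0 lower, and under quantile normalization 8 and 2, so the separation of Psmb8 depended on scaling. The 7 were D14Ertd668e, Oas3, Oas2, Mx2, Ifi27l1, Parp9 and Xaf1. Without knockout replicate 2 the counts were 12 higher and 5 lower, against 12.5% and 14.6% of all genes, and without WT replicate 3 they were 12 and 3, against 12.2% and 13.7%. In the same knockout libraries all 14 granulocyte and monocyte markers and all 5 tested B cell markers had a positive log2 fold change. All 8 macrophage markers had a negative one. Groups overlapped in 3 of these B cell markers and in 7 of the macrophage markers. The part of those cells in the values of the interferon genes was not tested.

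**Figure D2:**
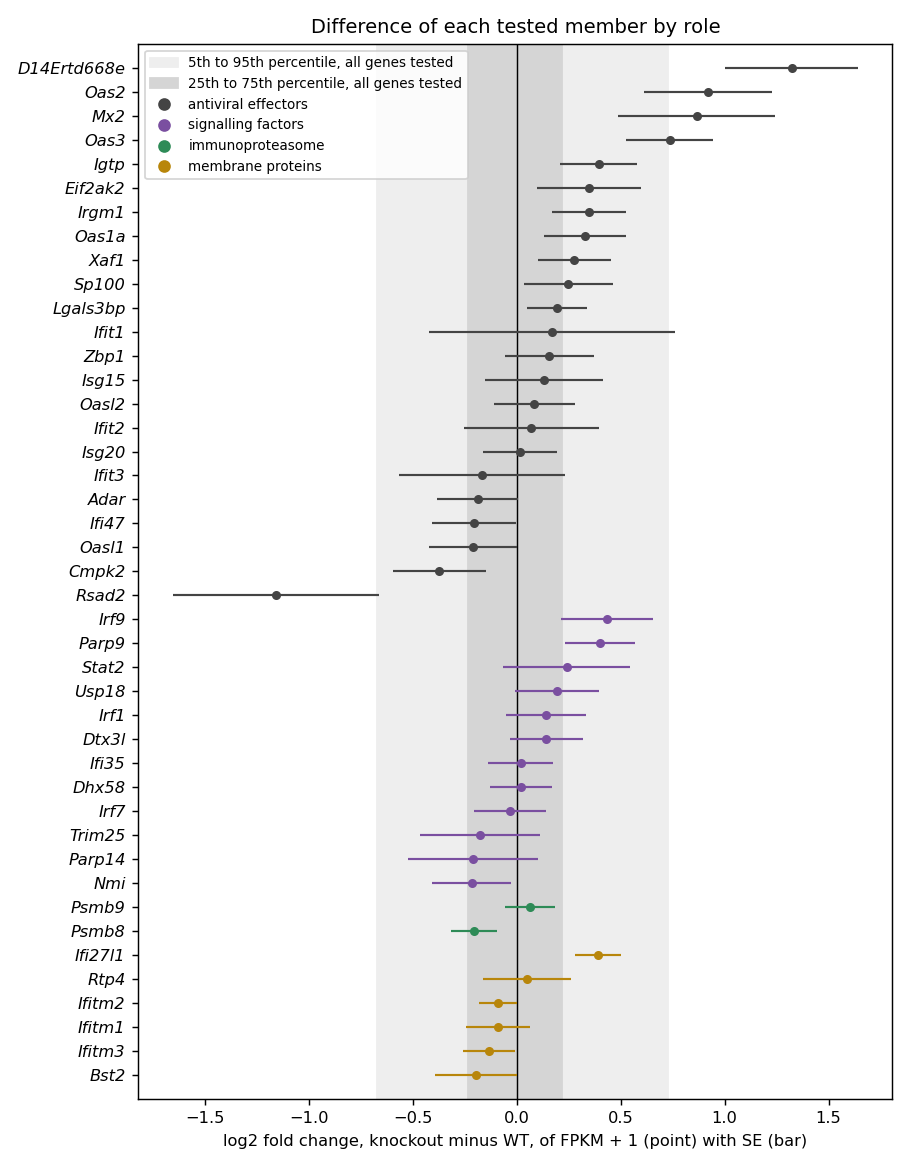
Log2 fold change of FPKM + 1, knockout minus WT (x axis; point with SE bar), for the 43 tested members by role, over the central 50 and 90 percent of all genes tested (dark and light bands). D14Ertd668e, Oas2, Mx2, Oas3 and Rsad2 lie outside the light band, and the other members lie within it.

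Among antiviral effectors, 17 of 23 tested members had a positive difference, with a median of 0.17, and 0 were called. The OAS enzymes are switched on by double-stranded RNA and make short oligoadenylates that activate the nuclease RNase L. Oas3 gave 17.05, 18.1 and 16.3 FPKM in the WT libraries, against 24.9, 38.8 and 25.7 in the knockouts. All 3 knockout values lay above WT, and replicate 2 was the highest. The ratio of means was 1.74 and the log2 fold change was 0.74 (SE 0.21, limma adjusted p = 0.401), or 0.54 without knockout replicate 2.

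Oas2, which lies next to Oas3 in the reference annotation, gave 4.69, 6.86 and 6.90 FPKM in the WT libraries, against 9.63, 18.8 and 10.4 in the knockouts. The groups again did not overlap and replicate 2 was again the highest. The mean came to 6.15 ± 1.27 FPKM over WT and 12.9 ± 5.07 over knockout libraries (SD, n = 3 each), a log2 fold change of 0.92 (SE 0.31, limma adjusted p = 0.486) that was 0.64 without that library. Oas1a, from a group of similar copies and therefore less certain, gave 21.4, 24.97 and 28.2 FPKM in the WT libraries, against 28.1, 39.1 and 27.9 in the knockouts. Its ranges overlapped, and its log2 fold change was 0.33 (SE 0.20, limma adjusted p = 0.658), or 0.17 without knockout replicate 2. Outside the members, Oas1b, Oas1c and Oas1g had log2 fold changes of -0.43, -1.01 and 0.45, each with overlapping ranges. The OAS-like genes Oasl1 and Oasl2, also an adjacent pair, had log2 fold changes of -0.21 and 0.08, each with overlapping ranges.

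D14Ertd668e (now Phf11d), a PHD finger gene with similar copies in the genome, had the most positive log2 fold change of the members. It gave 1.24, 1.68 and 1.78 FPKM in the WT libraries, against 7.04, 5.77 and 3.80 in the knockouts. The lowest knockout value was above the highest WT value. The log2 fold change was 1.32 (SE 0.32, 95% interval 0.58 to 2.06, limma adjusted p = 0.324), between 1.16 and 1.73 over the 14 alternative fits that tested it, in which its adjusted p ran from 0.218 to 0.820. Xaf1, whose product binds the apoptosis inhibitor XIAP, was outside the naming rule and is given after its values were seen. It stood at 16.6, 17.6 and 14.7 FPKM in the WT libraries, against 18.3, 20.0 and 21.5 in the knockouts, a log2 fold change of 0.28 (SE 0.18, limma adjusted p = 0.677).

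The dynamin-like GTPases Mx1 and Mx2 had the lowest WT means of the members. C57BL/6 mice are known to carry a defective Mx1 gene. Mx2 gave 0.926, 1.33 and 0.695 FPKM in the WT libraries, against 2.27, 1.69 and 4.25 in the knockouts. The groups did not overlap, with a log2 fold change of 0.87 (SE 0.38, limma adjusted p = 0.547). Its mean came to 0.985 ± 0.324 FPKM over WT and 2.73 ± 1.34 over knockout libraries (SD, n = 3 each). Mx1 gave 1.48, 1.12 and 0.407 FPKM in the WT libraries, against 0.283, 0.451 and 0.258 in the knockouts. Its mean over the 6 libraries was under 1 FPKM and it was not tested, and its ranges overlapped because WT replicate 3 was low.

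Rsad2 encodes viperin, which makes a nucleotide that stops viral RNA chains, and had the most negative log2 fold change of the members. It gave 4.56, 7.38 and 9.61 FPKM in the WT libraries, against 4.58, 0.696 and 3.68 in the knockouts. Knockout replicate 2 was far below the rest, while replicate 1 matched the lowest WT library. The log2 fold change was -1.16 (SE 0.50, limma adjusted p = 0.540) and -0.63 without knockout replicate 2. Cmpk2, the neighbouring gene, encodes a mitochondrial nucleotide kinase and stood at 15.9, 15.9 and 15.3 FPKM in the WT libraries, against 10.9, 15.7 and 9.80 in the knockouts. In that pair knockout replicate 2 was thus the lowest knockout library for Rsad2 and the highest for Cmpk2.

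The IFIT proteins bind foreign RNA ends, and their genes showed no shared direction. Ifit1 stood at 7.89, 6.95 and 4.84 FPKM in the WT libraries, against 15.3, 2.01 and 10.9 in the knockouts. Its knockout values surrounded the WT range, and the log2 fold change of 0.17 ran from -0.31 to 0.91 with 1 library left out, the higher value being that without knockout replicate 2. For Ifit2 and Ifit3 the log2 fold changes were 0.07 and -0.17, and Ifit3, which has a near-identical copy, is uncertain. Isg15, the ubiquitin-like modifier often used to report an interferon response, stood at 26.6, 24.6 and 13.1 FPKM in the WT libraries, against 18.6, 23.7 and 26.003 in the knockouts. The Isg15 ranges overlapped almost wholly, with a log2 fold change of 0.13 and a 95% interval from -0.53 to 0.79, and it ran from -0.18 to 0.31 with 1 library left out.

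The immunity-related GTPases act on the membranes around intracellular microbes and answer mostly to interferon gamma, and Irgm1 is also known for its role in stem cell maintenance. Igtp gave 28.5, 28.0 and 41.8 FPKM in the WT libraries, against 43.98, 40.8 and 43.1 in the knockouts. Irgm1 gave 48.9, 57.4 and 75.9 FPKM in the WT libraries, against 83.5, 69.6 and 76.4 in the knockouts. In both genes WT replicate 3 reached the knockout range, and the other WT libraries lay below it. Log2 fold changes were 0.39 (SE 0.19, limma adjusted p = 0.572) for Igtp and 0.35 (SE 0.18, limma adjusted p = 0.599) for Irgm1. Ifi47, of the same family, was at 107 ± 21.95 FPKM over WT and 92.5 ± 20.6 over knockout libraries (SD, n = 3 each), a log2 fold change of -0.21 that was -0.38 without knockout replicate 2.

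Of other effectors that act on nucleic acids, ranges of Adar, Eif2ak2 and Zbp1 overlapped between the genotypes. The RNA-editing enzyme gene Adar averaged 22.1 ± 2.44 FPKM over WT and 19.4 ± 3.52 over knockout libraries. Eif2ak2, which encodes the kinase PKR, had 6.80 ± 1.62 and 8.80 ± 0.561 FPKM, and Zbp1, a sensor of Z-form nucleic acid, had 17.7 ± 1.18 and 20.2 ± 4.59 FPKM (SD, n = 3 each). The exonuclease gene Isg20, the nuclear body gene Sp100 and Lgals3bp, which encodes a secreted glycoprotein, had log2 fold changes of 0.01, 0.25 and 0.19. Their ranges overlapped too.

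**Figure D3:**
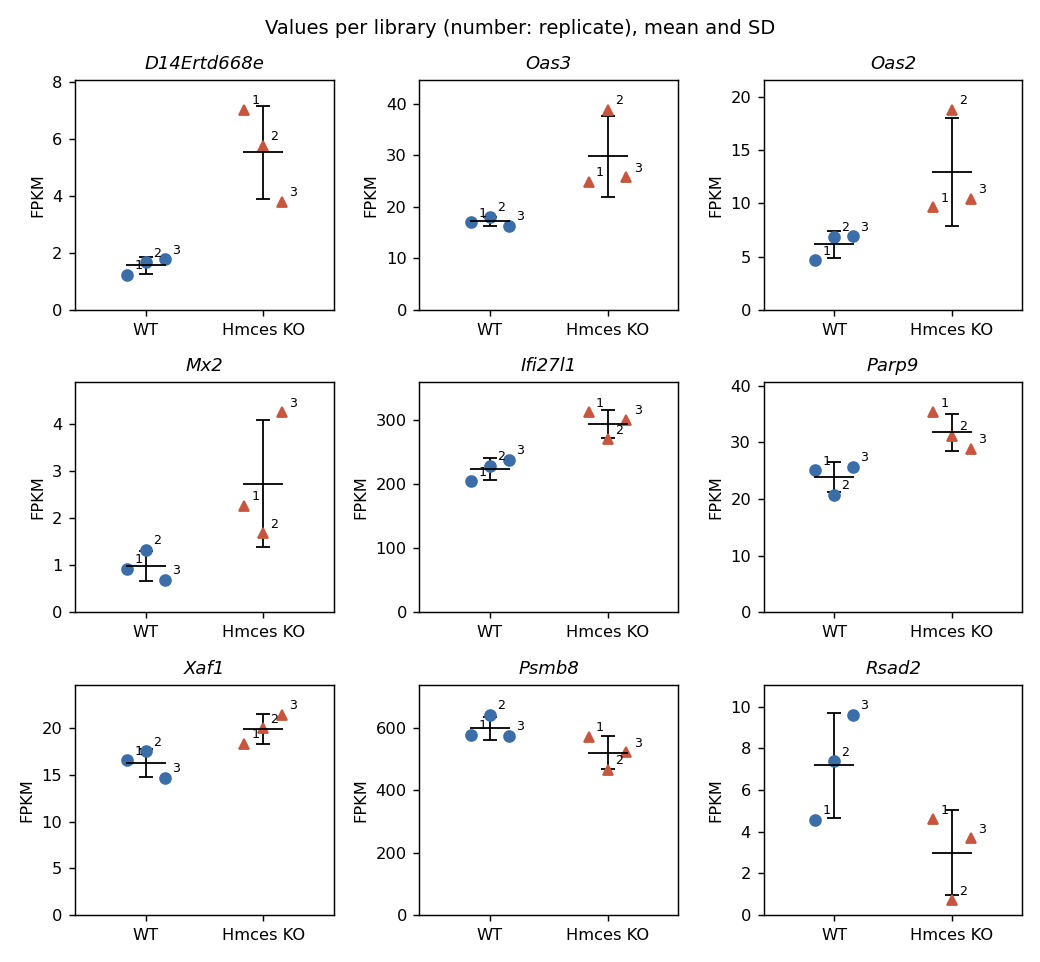
FPKM per library (y axis; number beside each point, the replicate) in WT (circles) and Hmces knockout (triangles), with mean and SD (bars), for the 8 members whose groups do not overlap and for Rsad2. Knockout replicate 2 is the highest library for Oas2 and Oas3 and the lowest for Rsad2 and Psmb8.

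Signalling factors had log2 fold changes from -0.22 to 0.43, with 8 of 12 positive, a median of 0.08 and none called. Irf9, which encodes the DNA-binding partner of STAT2, gave 44.5, 49.8 and 44.8 FPKM in the WT libraries, against 44.3, 81.3 and 68.8 in the knockouts. Knockout replicates 2 and 3 were high, whereas replicate 1 was just under the lowest WT value. The log2 fold change was 0.43 (SE 0.22, limma adjusted p = 0.596), and 0.25 without knockout replicate 2. Its partner Stat2 averaged 6.86 ± 2.49 FPKM over WT and 7.96 ± 0.684 over knockout libraries (SD, n = 3 each). Irf7, the factor that amplifies interferon production, had 30.6 ± 4.87 and 29.8 ± 2.80 FPKM, and Irf1 had 59.9 ± 12.1 and 65.7 ± 9.75 FPKM.

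Parp9, which works with the ubiquitin ligase DTX3L, was the signalling gene whose ranges did not overlap. It gave 25.1, 20.8 and 25.7 FPKM in the WT libraries, against 35.3, 31.2 and 28.9 in the knockouts, a log2 fold change of 0.40 (SE 0.17, limma adjusted p = 0.535). Dtx3l, its neighbour in the annotation, averaged 21.3 ± 1.24 FPKM over WT and 23.7 ± 3.55 over knockout libraries, and Parp14, next to Dtx3l, had 3.22 ± 1.07 and 2.58 ± 0.116 FPKM (SD, n = 3 each). Nmi, which encodes an adaptor that pairs with IFI35, had the most negative log2 fold change of the role. It stood at 57.9, 44.7 and 63.9 FPKM in the WT libraries, against 55.5, 39.5 and 47.7 in the knockouts, with overlapping ranges and a log2 fold change of -0.22 (SE 0.19, limma adjusted p = 0.747) that was -0.093 without knockout replicate 2. Usp18, which removes ISG15 and dampens the receptor, Dhx58, which encodes the RNA sensor partner LGP2, and the ligase gene Trim25 had log2 fold changes of 0.19, 0.02 and -0.18, and for Ifi35 it was 0.02.

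The immunoproteasome genes replace standard catalytic subunits and favour peptides for MHC class I, and they were abundant in both genotypes. Psmb8 gave 577, 642 and 575 FPKM in the WT libraries, against 571, 466 and 522 in the knockouts. The highest knockout value was just under the lowest WT value. The log2 fold change was -0.21 (SE 0.11, limma adjusted p = 0.613) and -0.13 without knockout replicate 2. Psmb9 gave 307, 335 and 296 FPKM in the WT libraries, against 375, 313 and 297 in the knockouts, with overlapping ranges and a log2 fold change of 0.07 (SE 0.12, limma adjusted p = 0.896) that was -0.034 without knockout replicate 1.

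Among membrane proteins, the IFITM proteins hinder fusion of viruses with cell membranes and made up most of the summed FPKM of the set. Ifitm1 gave 1169, 1322 and 1240.1 FPKM in the WT libraries, against 1293, 911 and 1350.0 in the knockouts. Ifitm2 gave 1316, 1408 and 1245 FPKM in the WT libraries, against 1267, 1285 and 1178 in the knockouts. Ifitm3 gave 1131, 1403 and 1054 FPKM in the WT libraries, against 1135, 1018 and 1098 in the knockouts. Ranges overlapped in all 3, and the low Ifitm1 value belonged to knockout replicate 2. The 95% intervals of the log2 fold change ran from -0.45 to 0.27 for Ifitm1, from -0.30 to 0.12 for Ifitm2 and from -0.42 to 0.15 for Ifitm3, so larger differences on this scale lie outside them. Point estimates were negative for all 3, but under quantile normalization those of Ifitm1 and Ifitm2 were 0.027 and 0.045.

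Ifi27l1 (now Ifi27), which encodes a small hydrophobic membrane protein, gave 205, 228 and 238 FPKM in the WT libraries, against 312, 270 and 300.1 in the knockouts. All 3 knockout values lay above WT. The log2 fold change was 0.39 (SE 0.11, 95% interval 0.14 to 0.65, limma adjusted p = 0.394) and stayed between 0.33 and 0.45 over the 15 alternative fits. Bst2 encodes tetherin, which holds budding virus at the cell surface, and gave 144, 207 and 147 FPKM in the WT libraries, against 175, 115 and 145 in the knockouts. Its ranges overlapped, with a log2 fold change of -0.20 (SE 0.20, limma adjusted p = 0.785) that was -0.040 without knockout replicate 2 and -0.026 without WT replicate 2. Bst2 also marks plasmacytoid dendritic cells, whose 8 markers summed to 38.9 to 45.7 FPKM in WT and 35.0 to 61.3 FPKM in knockout libraries, with Klk1 at 0 throughout and Siglech at no more than 1.86 FPKM. Of these markers 5 were tested and 4 had a positive difference, while Ccr9 gave 7.44, 6.29 and 3.03 FPKM in the WT libraries, against 0.228, 2.35 and 2.42 in the knockouts (limma adjusted p = 0.495). The part of such cells in the Bst2 values was not tested. The receptor chaperone gene Rtp4 averaged 67.8 ± 16.1 FPKM over WT and 69.7 ± 12.7 over knockout libraries (SD, n = 3 each).

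**Figure D4:**
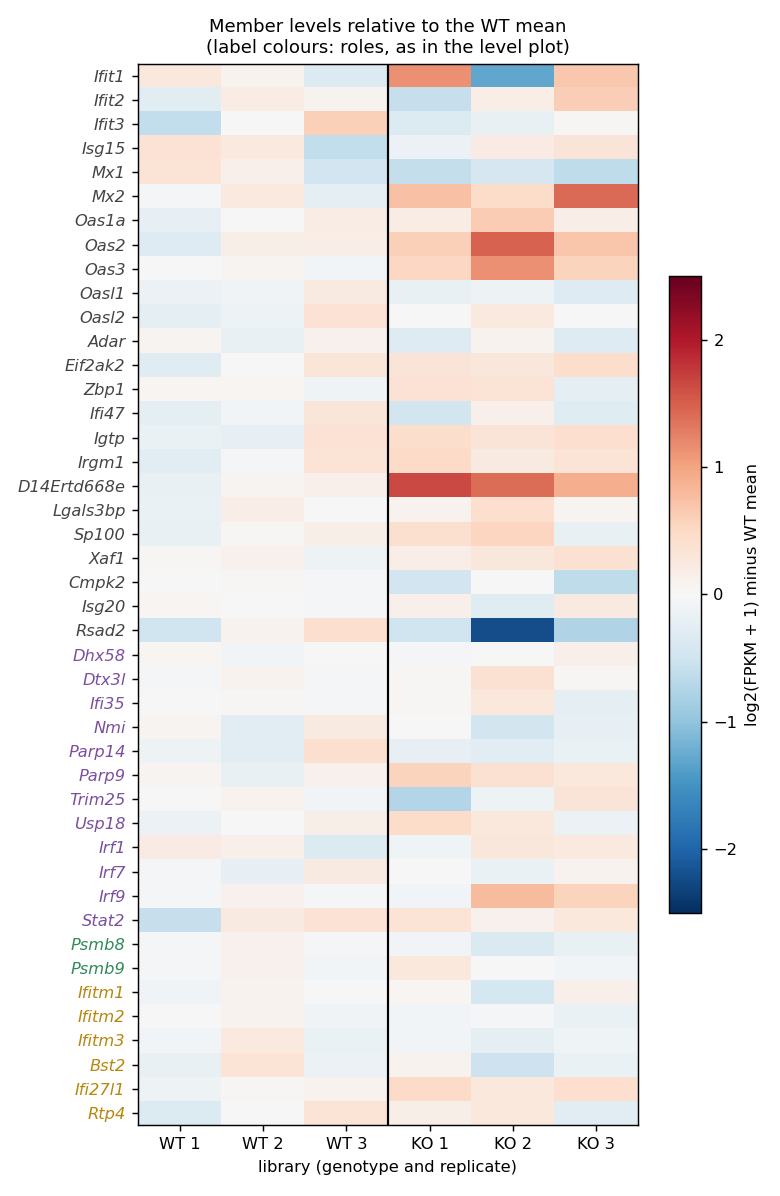
Level of each of the 44 genes in each library (columns) as log2(FPKM + 1) minus the mean of the 3 WT libraries (colour), with rows by role. Knockout replicate 2 holds both the highest values of Oas2 and Oas3 and the lowest values of Ifit1 and Rsad2.

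Knockout replicate 2 had the highest value of its genotype for 17 of 44 members and the lowest for 16, against 37.8% and 32.7% of all genes tested. WT replicate 1 had the lowest of its genotype for 21 members, against 33.6% of all genes. Members with the ISRE letters in their window were positive in 8 of 13, with a median log2 fold change of 0.17, and those without in 12 of 21, with a median of 0.02. With the looser letters GAAANNGAA, 8 of 15 members with them and 12 of 19 without were positive, with medians of 0.13 and 0.07. For the GAS letters the counts were 7 of 11 and 13 of 23, with medians of 0.02 and 0.08. These splits were not tested.

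The rest of the pathway was read from a separate list of 132 genes. The interferon genes themselves were at the floor: of 21 ligand genes, 0 reached the mean of 1 FPKM needed for testing, Ifnb1 and Ifng were listed at 0 in every library, and the highest single value was 1.45 FPKM for Ifna2 in knockout replicate 3. The receptor and kinases were present in both genotypes. Ifnar1 gave 18.4, 21.8 and 22.5 FPKM in the WT libraries, against 20.2, 26.6 and 24.1 in the knockouts. Ifnar2 gave 96.8, 95.6 and 98.5 FPKM in the WT libraries, against 102, 90.4 and 88.6 in the knockouts. Their log2 fold changes were 0.17 (SE 0.18, limma adjusted p = 0.801) and -0.05 (SE 0.11, limma adjusted p = 0.915), with overlapping ranges.

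The kinase gene Jak1 gave 54.2, 51.5 and 60.7 FPKM in the WT libraries, against 54.6, 82.4 and 59.9 in the knockouts. For Tyk2 the values were 15.0, 13.7 and 7.34 FPKM in the WT libraries and 13.96, 11.1 and 14.2 in the knockouts. Both overlapped between the genotypes, and knockout replicate 2 held the highest Jak1 value. Of the 8 receptor and kinase genes tested, 6 had a positive log2 fold change, as did 7 of 10 STAT and IRF factors, 7 of 13 negative regulators and 3 of 3 ISG15 conjugation enzymes, and limma called 0 in each of these lists.

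In a list of 74 other interferon-stimulated genes, 64 were tested and 1 was called, Ifi44, against 0.104% of all genes called higher. This list was drawn up with earlier results of these data known, so its counts beside all genes are a description only. At an unadjusted p under 0.05, 14 were higher and 1 lower in knockout cells, against 4.32% and 4.84% of all genes. Non-overlapping ranges placed 14 above and 1 below WT, against 7.47% and 8.34%, and the median log2 fold change was 0.07. Ifi44 gave 15.3, 20.0 and 18.0 FPKM in the WT libraries, against 58.5, 54.1 and 63.3 in the knockouts. The log2 fold change was 1.67 (SE 0.16, limma adjusted p = 0.0119). It stayed between 1.58 and 1.76 over 15 alternative fits, of which 7 called it. Leaving out 1 library ended the call in 5 of 6 fits (adjusted p of 0.0526 without WT replicate 1, 0.0553 without WT replicate 2, and 0.0659, 0.0788 and 0.182 without knockout replicates 1, 2 and 3).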

How the data were processed

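Expression was analysed from FPKM values per gene as deposited by the authors, with 1 column per library and no pooling. TopHat2 2.1.1, Cufflinks 2.2.1 and build mm9 are named in the submitters' processing notes. The sources used here do not state alignment options, annotation or use of strand, so near-identical and overlapping genes are less certain. An FPKM of 0 can be a failed estimate.

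Genes with a mean of at least 1 FPKM (11532) were taken to log2(FPKM + 1) for limma 3.58.1 under R 4.3.3 (mean-variance trend, genotype as the only term, two-sided). P-values were adjusted by Benjamini-Hochberg over all genes tested and called under 0.05. The fit was tested on simulated data, with normal values drawn independently for each gene and library. The simulation held no outlying library such as knockout replicate 2. Depth was inferred from step sizes among low values of 1427 genes, assuming fragments of 200 bases, and covers counting error only. No count test was run. RefSeq windows on GRCm38.p6 were used for promoter letters.

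The members and lists were chosen with earlier results of these data known. Members described with every value were those called, the 12 with the smallest p, the 6 highest in WT and the extremes of each role, with Ifnar1, Ifnar2, Jak1, Tyk2 and called genes of the wider pathway. A further gene of that rule is not reported here. Further members are given by values or summaries. Alternatives changed the pseudocount, floor, scaling, variance prior, genes kept, libraries kept and a replicate block.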

Additional observations from a re-analysis of the deposited data

How the results depend on the processing

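No member was called by limma under any of the 15 alternatives, the lowest adjusted p being 0.218 for D14Ertd668e with small RNA genes left out. Over all genes, 13 were called, against 1 when low genes were kept, 6 with the variance trend off, 20 with robust estimation, 32 without small RNA genes and 2 to 19 with 1 library left out. Members with non-overlapping groups numbered 10 to 17 with 1 library left out, against 8, where smaller groups separate more often. The median log2 fold change of the members ran from 0.046 to 0.16 with 1 library left out. Of wider pathway genes, 0 were called with low genes kept or the trend off, 2 (Ifi44 and Ly6c2) without small RNA genes, and 0 to 1 with 1 library left out. With 1 library left out, estimates of 15 of the 43 tested members took both signs, none over 0.24 in size with every library kept. Among the 18 named members, estimates changed sign for Psmb9 (-0.034 to 0.13 with 1 library left out, negative without knockout replicate 1), Ifitm1 (0.027 under quantile normalization, -0.19 to 0.089 with 1 library left out, positive without knockout replicate 2) and Ifitm2 (0.045 under quantile normalization). The cause was not tested. Fits of those members otherwise kept direction and side of the threshold. The looser letters GAAANNGAA stood in 15 members' windows, against 13.

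With the replicate number as a block, 2 genes, 0 members and 0 wider pathway genes were called. Same-numbered libraries deviated from their group means with correlations of 0.08, 0.01 and 0.04. Knockout replicate 2 correlated best with WT replicate 3, at 0.05. All these values are small, so they cannot tell whether the numbers pair the samples.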

Other observations

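Several interferon-stimulated genes outside the 44 separated the genotypes by more than most members, and are named here after their values were seen. Ly6c2, which encodes a surface protein of monocytes and other blood cells, gave 38.7, 11.6 and 13.0 FPKM in the WT libraries, against 150, 144 and 126 in the knockouts. Its log2 fold change was 2.88 (SE 0.40, limma adjusted p = 0.0702), and it was called when small RNA genes were left out (adjusted p = 0.00569) and without WT replicate 1 (adjusted p = 0.00104). The Schlafen gene Slfn1 stood at 1.43, 1.24 and 2.59 FPKM in the WT libraries, against 4.68, 7.92 and 4.67 in the knockouts, and Slfn2 stood at 10.3 ± 2.26 and 17.7 ± 2.90 FPKM (SD, n = 3 each). Neither passed the test (limma adjusted p = 0.378 and 0.479). Apobec3, which encodes a cytidine deaminase that restricts retroviruses, had lower values in knockout cells, at 153, 188 and 151 FPKM against 196, 199.6 and 210.4 FPKM in WT (limma adjusted p = 0.528). All 14 granulocyte and monocyte markers and all 5 tested B cell markers had a positive log2 fold change in the same libraries. All 8 macrophage markers had a negative one. Groups overlapped in 3 of these B cell markers and in 7 of the macrophage markers. The part of those cells in these values was not tested.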
